A study of Equus caballus with 31 samples.

Results

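Genes of the cytosolic ribosomal proteins were examined by RNA sequencing in synovial (joint) fluid cells and in mononuclear cells of the blood (PBMC), from healthy horses and from horses with spontaneous osteoarthritis (OA). They were chosen by gene symbol, as RPL or RPS followed by a number, the stalk proteins RPLP0 to RPLP2 and the laminin receptor RPSA, with the ribosomal S6 kinases and RPS19BP1 left out. The rule found 71 of 18149 genes, 41 of the large and 30 of the small subunit. Of these, 71 were listed for fluid and 70 for blood, since the muscle-type paralogue RPL3L was listed for fluid only. A mean normalized read count of at least 10 was reached by 69 genes in each tissue, 40 of the large and 29 of the small subunit, and these entered the tests. RPS23, a small subunit protein of the decoding centre, was listed at a mean of 6.23 in fluid and 3.25 in blood, and RPL3L at 0.69 in fluid.

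The groups were fluid cells of OA horses (n = 5) and of healthy horses (n = 11), and PBMC of OA horses (n = 6) and of healthy horses (n = 9). All 31 samples are labelled wild type and as mixed mononuclear cells, and each library within a tissue came from a separate horse. For 13 horses, 5 with OA and 8 healthy, both tissues were sequenced. OA was assigned by lameness examination, radiographs and joint analgesia, and recently medicated or injected horses were left out. Fluid was digested with hyaluronidase and spun to a pellet with no sorting step in the labels, so any cell of the joint fluid can be in it. The labels give no age, sex, breed, joint or sequencing batch, and a batch that follows disease cannot be told apart from OA. Names of horses follow the labels, with OA_ before the number of an OA horse and ORC_ before that of a healthy one.

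The cytosolic ribosome consists of a small subunit, which reads the mRNA, and a large subunit, which joins the amino acids and holds the exit tunnel of the new protein. Each is built from ribosomal RNA and a set of proteins that cells make in near equal amounts, and the mRNAs of these proteins share a pyrimidine tract at their start through which mTOR signalling and LARP1 control their translation. In blood, resting lymphocytes are known for giving a large share of their mRNA to ribosomal proteins. A few members have a second gene for a closely related protein, such as RPL22L1 for RPL22, RPL7L1 for RPL7 and RPL26L1 for RPL26.

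Libraries held between 25.91 and 36.32 M reads in fluid and between 23.91 and 34.75 M in blood, where OA libraries were the deeper (31.71 to 34.75 against 23.91 to 32.2 M). Blood depth therefore moves with disease. A limma fit of blood with the log2 library total as a covariate called 0 members, at a median change of -0.41. The same fit called 0 of all 13072 genes in either direction, so its count of members is uninformative. T cell, B cell and monocyte markers were present in both tissues, and no gene of the marker lists was at 0 in every library of its tissue. In OA fluid, 10 of 11 T cell markers fell, and their summed level ranged from 8051 to 34700 against 35510 to 128800 in healthy fluid. Fibroblast markers summed to between 1301 and 644600 in OA fluid and between 779.4 and 128600 in healthy fluid, and 2 of 11 rose. In OA blood, 4 of 9 monocyte and macrophage markers rose (summed level 93580 to 249900 against 44340 to 120100) and 8 of 13 proliferation genes fell. There 1 of 5 neutrophil markers rose (35610 to 78840 against 10790 to 50250) and 1 of 7 B cell markers fell (11710 to 51660 against 22760 to 75580). In OA fluid, 4 of 16 immediate early and stress genes rose (134000 to 340500 against 66170 to 516100), 1 of 5 neutrophil markers rose (7289 to 70340 against 1556 to 46710) and 1 of 7 B cell markers fell (387 to 2230 against 1099 to 41720). There 2 of 9 monocyte and macrophage markers rose (31120 to 198000 against 16300 to 154900) and 2 of 13 proliferation genes fell. Of all genes, 14.4% rose and 13.6% fell in fluid, and 3.2% rose and 2.2% fell in blood. The fibroblast, neutrophil, B cell and proliferation counts in fluid lie near these shares, though the sizes of change varied. The median log2 change was 3.41 for fibroblast markers (11 of 11 above 0) and 1.63 for neutrophil markers (5 of 5 above 0). It was -1.17 for B cell markers (7 of 7 below 0) and -0.13 for proliferation genes (9 of 13 below 0). Over all genes in fluid it was 0.08. Fluid fits with the T cell or fibroblast mean as a covariate are given below. A limma fit of blood with the monocyte and macrophage mean as a covariate called 0 members, at a median change of -0.33. It also called 0 of all 13072 genes, so its count of members is uninformative. The part of these lists in the results was not tested further.

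Ribosomal protein genes took a variable part of each library. In OA fluid they held 13.26% of all reads in OA_1038, 9.23% in OA_9350, 6.08% in OA_3850, 5.54% in OA_2615 and 4.74% in OA_9570. In healthy fluid the lowest share was 3.66%, the median 4.96% and the highest 7.10%, in ORC_198. OA_1038 and OA_9350 thus lay above every healthy fluid, and the other 3 OA fluids lay within the healthy range. The mean was 7.77% ± 3.51 (SD, n = 5) in OA fluid and 4.95% ± 1.16 (SD, n = 11) in healthy fluid. In blood the medians lay in the opposite order, with a lowest share of 5.43%, a median of 6.53% and a highest of 7.89% in OA, against 5.85%, 8.28% and 11.62% in healthy horses. The 4 largest blood shares were all from healthy horses, ORC_202 (11.62%), ORC_197 (11.29%), ORC_200 (9.72%) and ORC_207 (9.12%), while ORC_188, ORC_192, ORC_205 and ORC_209 lay within the OA range. The exact (Clopper-Pearson) 95% binomial interval of a share was at most 0.0257 percentage points wide and covers counting error only. As a sum over the members, the share is given without a test.

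**Figure D1:**
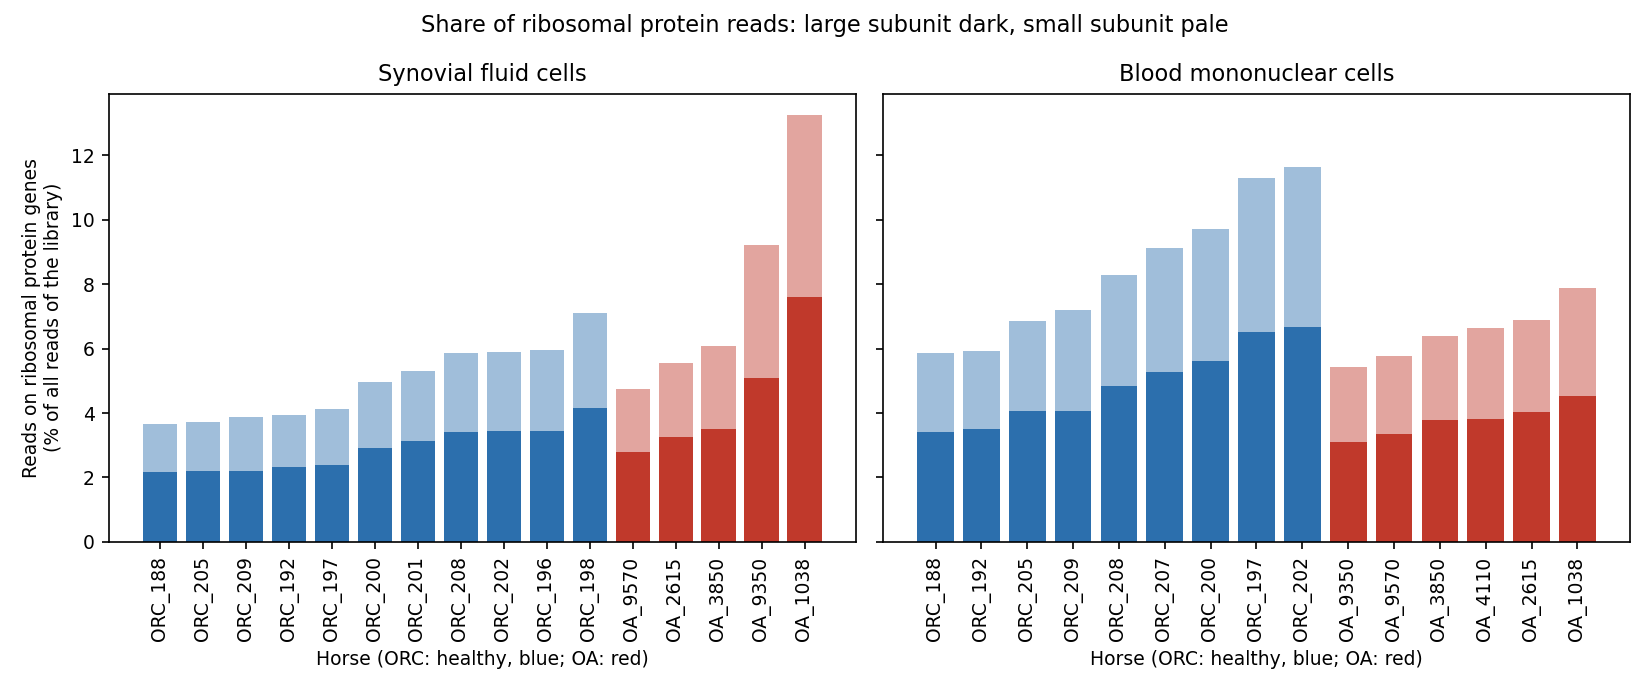
Share of all reads of a library (percent, bars from 0) that fell on ribosomal protein genes, in synovial fluid cells (left) and blood mononuclear cells (right), 1 bar per horse, ordered by share within healthy (blue) and OA (red); the dark lower part is the large and the pale upper part the small subunit. OA_1038 (13.26%) and OA_9350 (9.23%) stand above all healthy fluids, whereas in blood the OA libraries lie between 5.43% and 7.89% and 5 of 9 healthy libraries lie above them.

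Both subunits moved together in these shares. Reads of large subunit genes were 1.35 ± 0.08 times those of small subunit genes in OA fluid (SD, n = 5) and 1.41 ± 0.05 times in healthy fluid (SD, n = 11). In blood the ratio was 1.38 ± 0.04 in OA (SD, n = 6) and 1.38 ± 0.05 in healthy horses (SD, n = 9). The lowest ratio of any library, 1.23, was that of OA_9350 fluid.

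The first question was how fluid cells of OA joints compare with those of healthy joints. Of 69 ribosomal protein genes, 40 rose and 0 fell in OA fluid by limma at an adjusted p below 0.05. The largest change was 2.92-fold, that of RPL22L1. Among all 13885 genes tested, 14.4% were called higher and 13.6% lower. The large subunit had 24 of 40 genes called higher and a median log2 change of 0.78, the small subunit 16 of 29 and 0.79, and the median of all genes was 0.08. All but RPS4X, 68 of 69, had a change above 0, as had 53.8% of all genes. edgeR called 42 of the 69 and DESeq2 58, where 14.1% and 18.1% of all genes were called higher. With libraries scaled to equal totals, the members had 24 calls and a median of 0.59, where 1311 of 13885 genes were called higher. All genes together then had a median of -0.12 in place of 0.08, and the share of all calls that were higher went from 51.4% to 32.2%.

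These calls rested largely on 2 animals. OA_1038 lay above every healthy fluid for 67 of 69 genes and OA_9350 for 65, but OA_2615 did so for 9, OA_3850 for 6 and OA_9570 for 1. Relative to the healthy median, the other 3 OA fluids were higher for 57 (OA_2615), 62 (OA_3850) and 58 (OA_9570) of the 69 genes. The median gene was 1.65 log2 units over the healthy mean in OA_1038 and 1.35 in OA_9350, against 0.33, 0.35 and 0.21 in OA_2615, OA_3850 and OA_9570. Without OA_1038, 14 genes were called, and without OA_9350, 17. Of all 13885 genes, 1435 and 1474 were called higher in these fits, against 2006 with every library. Without both, 1 gene, RPL22L1, was called, the median change was 0.30, and 4.78% of all genes were called higher. Calls in every fit that left out a single library numbered 14: RPL5, RPL7, RPL9, RPL10, RPL22, RPL22L1, RPL26, RPL27, RPL32, RPL39, RPS3A, RPS6, RPS24 and RPSA. How many of all genes kept their call in every such fit was not counted, so no background stands beside the 14. OA_1038 (34700) and OA_9350 (25340) also had the highest T cell marker sums of the 5 OA fluids, with OA_9570 next at 23080. All healthy fluids had higher T cell sums (35510 to 128800). Among OA fluids, the monocyte and macrophage sum was lowest in OA_1038 (31120) and highest in OA_9350 (198000), with 152200 to 180800 in the others. In a limma fit adjusted for the mean of the T cell markers, 0 members were called, as were 0.0% of all genes in the higher direction, and the members' median was 1.29. Adjusted for the mean of the fibroblast markers, 1 member was called where 3.48% of all genes were higher. The part of these markers in the result was not tested further. In bulk RNA, more cells of a ribosome-rich type and more ribosomal protein mRNA per cell cannot be told apart.

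**Figure D2:**
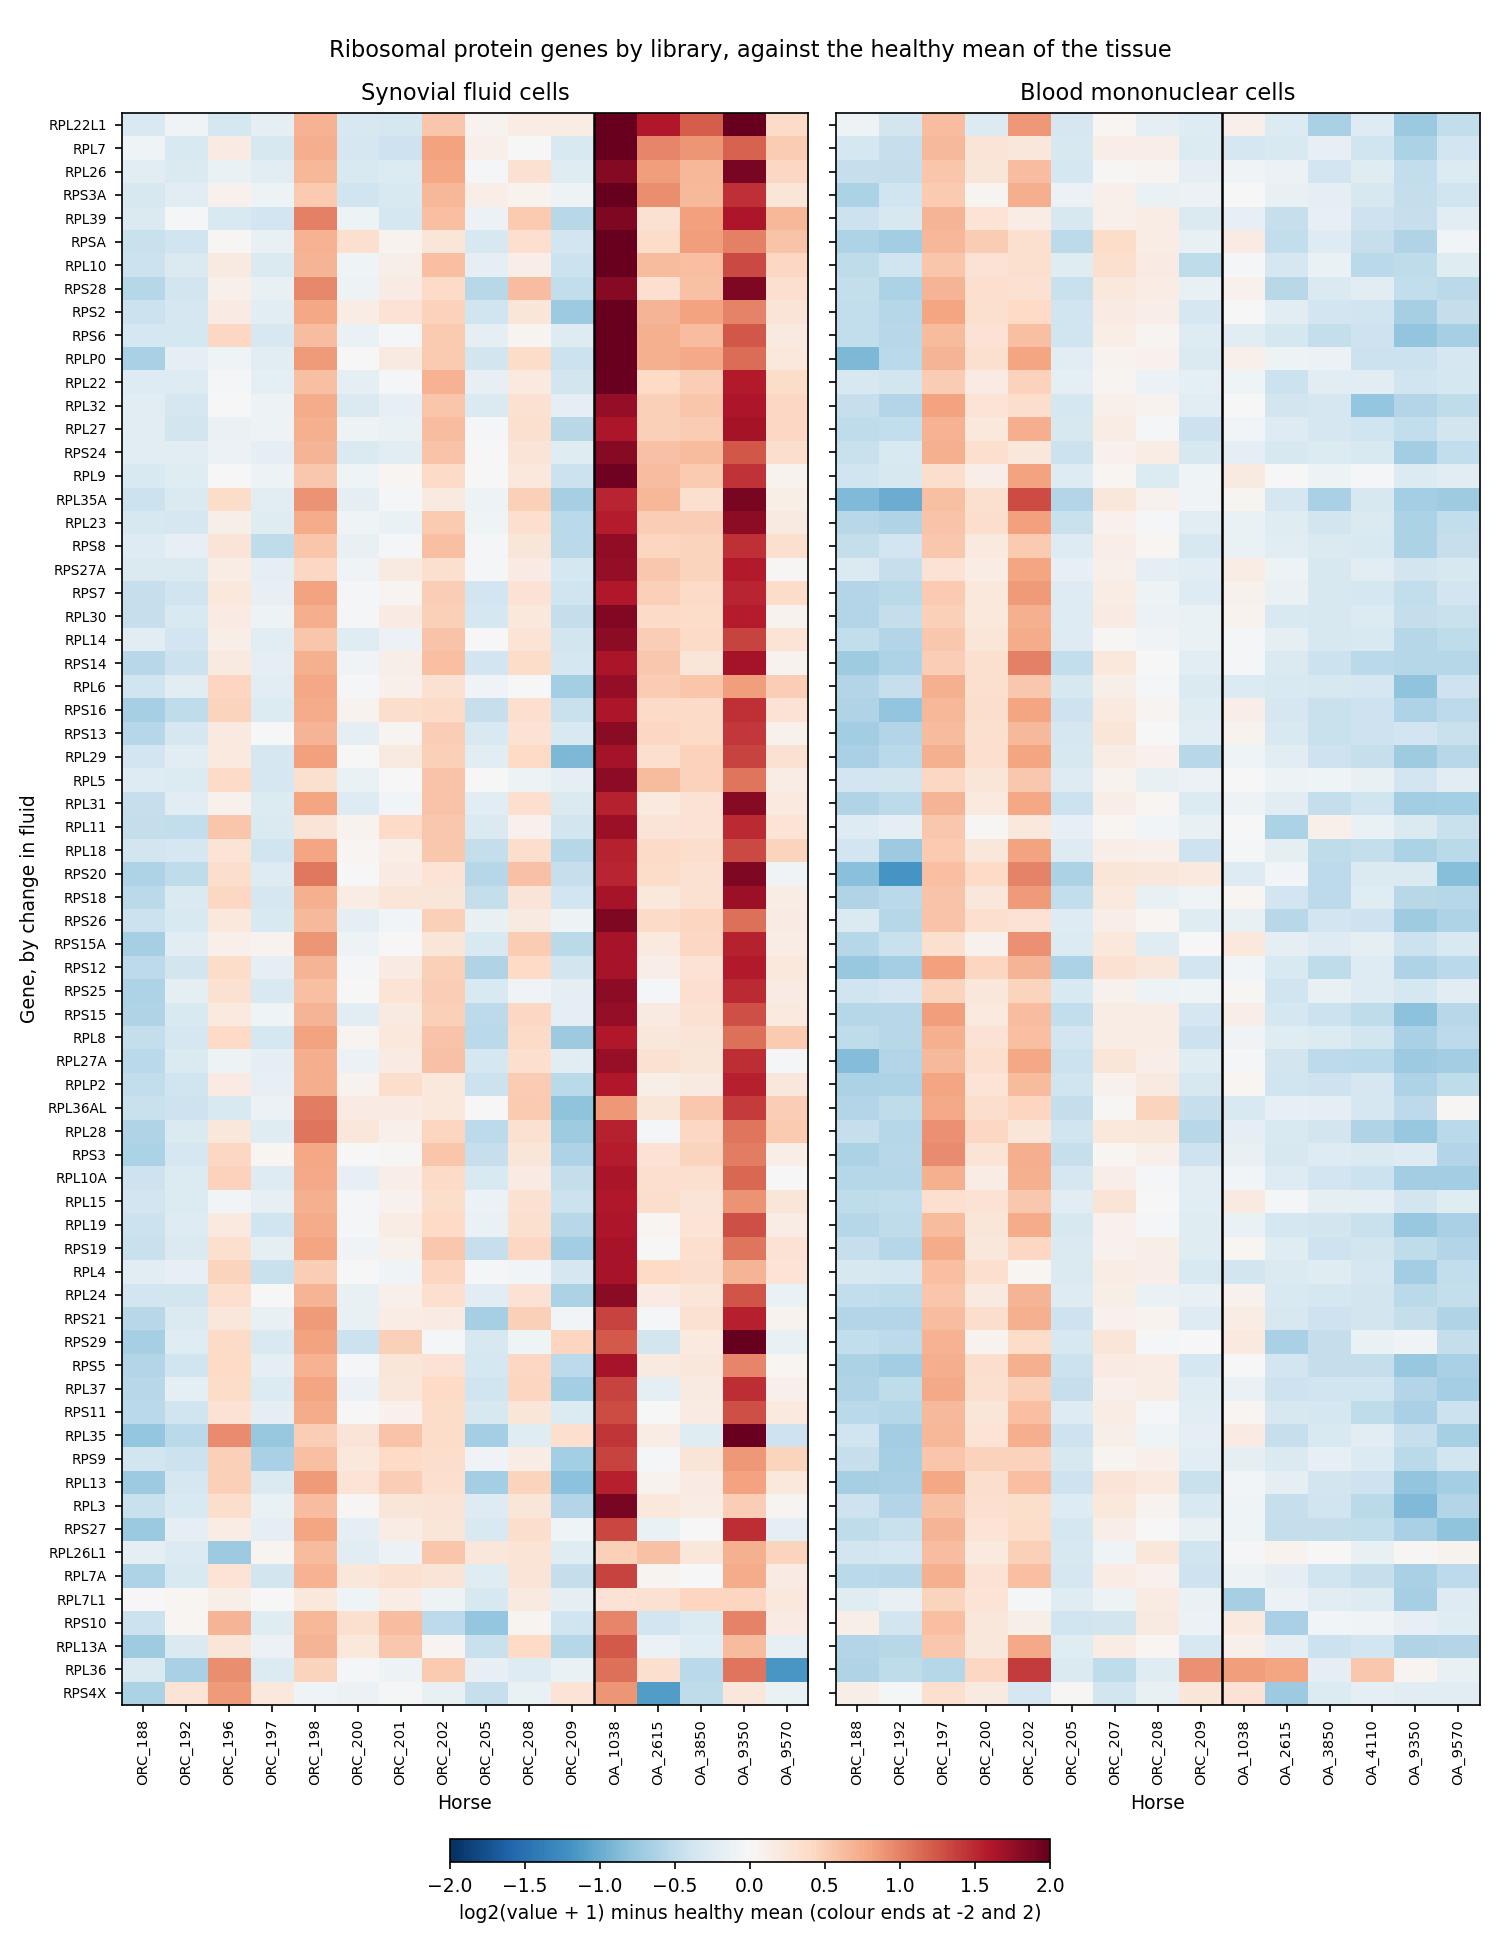
Normalized level of each of 68 ribosomal protein genes (one line each, ordered by change in fluid) in every library, as log2(value + 1) minus the healthy mean of the same tissue; red is higher and blue lower, the colour scale ends at -2 and 2, and the black line separates healthy (left) from OA horses (right). In fluid the red is deepest in OA_1038 and OA_9350, whose median genes lie 1.65 and 1.35 over the healthy mean, and in blood the healthy horses ORC_197 and ORC_202 are the reddest.

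Among large subunit genes the change was largest for RPL22L1, the paralogue of RPL22 (chromosome 19, 13531141 to 13535129, EquCab3.0). Its normalized read count in OA fluid was 3080 in OA_1038, 2141 in OA_2615, 1631 in OA_3850, 3684 in OA_9350 and 917.8 in OA_9570. In healthy fluid the lowest value was 547.3, the median 666 and the highest 1135. Only OA_9570 overlapped the healthy range. The log2 change was 1.55 (SE 0.27, limma adjusted p = 0.00122), which is 2.92-fold, and without OA_1038 and OA_9350 it was 1.07 (adjusted p = 0.0188).

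RPL7 and RPL26 followed. RPL7, an RNA-binding protein of the large subunit (chromosome 9, 13566996 to 13570157), stood at 128400, 56090, 52370, 64640 and 40730 in OA_1038, OA_2615, OA_3850, OA_9350 and OA_9570, against 21330, 26870 and 49560 as lowest, median and highest in healthy fluid. In all, 4 OA fluids were therefore above all healthy ones. Its change was 1.14 (SE 0.26, limma adjusted p = 0.00518), and 0.79 (adjusted p = 0.0574) without OA_1038 and OA_9350. RPL26, a protein near the exit tunnel that also binds the mRNA of p53 (chromosome 11, 51600927 to 51605380), had 41570, 20700, 18400, 43060 and 15390 in the same order of OA fluids and a healthy range of 9360 to 19770 with a median of 9936. OA_1038, OA_2615 and OA_9350 exceeded that range, and OA_3850 and OA_9570 did not. The change was 1.13 (SE 0.26, adjusted p = 0.00544), and 0.64 (adjusted p = 0.0911) without OA_1038 and OA_9350.

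Other large subunit genes that rose included RPL39, a small protein lining the exit tunnel (1.05, SE 0.28, limma adjusted p = 0.0108), RPL10, which helps to join the subunits and whose loading ends large subunit maturation (1.0, SE 0.26, adjusted p = 0.0101), RPL22 (0.96, SE 0.26, adjusted p = 0.0123) and RPL32 (0.96, SE 0.25, adjusted p = 0.00965). RPL5, which with RPL11 and the 5S RNA forms the particle that binds MDM2, rose by 0.82 (SE 0.23, adjusted p = 0.0151), with 69840 in OA_1038 and a range of 22620 to 42730 over the rest of OA, against 16060 to 30260 in healthy fluid. RPL11 rose by 0.81 (SE 0.27, adjusted p = 0.0361), but lost the call in 6 of 16 fits that left out 1 library. MDM2 itself, which that particle inhibits, had a change of 0.36 (adjusted p = 0.0895).

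The stalk of the large subunit, where elongation factors dock, is held by RPLP0 and carries RPLP1 and RPLP2; RPLP1 was not analysed here. RPLP0 had 299300 in OA_1038, 119600 in OA_2615, 123600 in OA_3850, 158800 in OA_9350 and 84990 in OA_9570. The healthy range was 46670 to 133000 with a median of 69420, so 2 OA fluids exceeded it. RPLP0 rose by 0.96 (SE 0.28, limma adjusted p = 0.0181), and its call was lost without OA_1038 (0.69, adjusted p = 0.0604). RPLP2 had a change of 0.73 (SE 0.28, adjusted p = 0.0604), with 45320 and 43740 in OA_1038 and OA_9350 and 16160 to 17450 in the other 3, against 10270 to 24690 in healthy fluid.

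The smallest large subunit changes were those of RPL36 (0.16, SE 0.37, limma adjusted p = 0.769) and RPL13A (0.27, SE 0.28, adjusted p = 0.478). RPL13A, known also as part of a complex that silences inflammatory mRNAs in interferon-treated monocytes, had 139500 in OA_1038 and 92400 in OA_9350. In OA_2615, OA_3850 and OA_9570 it had 54840, 51470 and 53540, all 3 below the healthy median of 62370. Its change was -0.17 (adjusted p = 0.708) without OA_1038 and OA_9350.

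In the small subunit, RPS3A, a protein at the mRNA exit side (chromosome 2, 82560326 to 82565074), had the largest change. Its values were 160400 in OA_1038, 65170 in OA_2615, 53700 in OA_3850, 94150 in OA_9350 and 40540 in OA_9570, against a lowest of 25970, a median of 31940 and a highest of 54510 in healthy fluid. OA_1038, OA_2615 and OA_9350 exceeded all healthy fluids, OA_3850 lay just below the highest, and OA_9570 lay inside the range. RPS3A rose by 1.10 (SE 0.27, limma adjusted p = 0.00751), and by 0.60 with an adjusted p of 0.0989, not called, when OA_1038 and OA_9350 were left out.

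RPSA, which is also known as the laminin receptor of the cell surface (chromosome 16, 47544493 to 47549932), rose by 1.04 (SE 0.28, limma adjusted p = 0.0121). Here 1 library stood apart: RPSA reached 106200 in OA_1038 against 25130 to 39200 for the rest of OA and 14390 to 31770 for healthy fluid. RPS6, the S6 kinase substrate, rose by 0.98 (SE 0.27, adjusted p = 0.0135), from a healthy median of 25980 to 129200, 46250, 43420, 66860 and 31970 in OA_1038, OA_2615, OA_3850, OA_9350 and OA_9570. RPS24, mutated in some cases of Diamond-Blackfan anaemia, rose by 0.93 (SE 0.23, adjusted p = 0.00851), and RPS27A, made as a fusion with ubiquitin, by 0.87 (SE 0.24, adjusted p = 0.0149). RPS19, the gene most often mutated in that anaemia, and RPS3, which also has a part in DNA repair and NF-kappa-B binding, had changes of 0.67 (adjusted p = 0.0776) and 0.69 (adjusted p = 0.0599).

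RPS10 (0.29, SE 0.30, limma adjusted p = 0.478) and RPS4X (-0.13, SE 0.30, adjusted p = 0.77) had the smallest changes of the small subunit. RPS4X, an X-linked small subunit protein, was listed at 458.3, 114.3, 174.7, 291.4 and 228 in OA_1038, OA_2615, OA_3850, OA_9350 and OA_9570, around a healthy median of 235. Its OA fluids did not lie to 1 side of the healthy ones, with OA_2615 below all healthy fluids and OA_1038 above them. RPL36 had a like spread, with OA_9570 (76.32) below and OA_1038 (369.6) and OA_9350 (365.5) above the healthy range of 109.3 to 330.4.

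RPL11, RPL36, RPS10, RPS23 and RPS4X share a low read count, with means under 1000 in both tissues. In the blood table's EquCab3.0 coordinates, 5 of these 5 overlap another annotated gene, against 14 of the other 65 members with coordinates. RPL36 (chromosome 7, 3940439 to 3941096) overlaps LONP1 and SAFB, RPS4X (chromosome X, 56952063 to 56957742) overlaps PRPS2, and RPL11, RPS10 and RPS23 each overlap an unnamed gene; the RPL11 entry also joins 2 gene identifiers. How the counting treated reads shared by overlapping genes is not given in the sources used here, so the levels and changes of these 5 are uncertain.

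Within the fluid groups, the members varied together from horse to horse. After subtraction of group means, a member's log2 level correlated with the mean of the other members at a median Pearson r of 0.95 (16 libraries), and 48 of 69 genes had an r over 0.9. The same figures in blood were 0.96 (15 libraries) and 50 of 69. These are descriptions: the values of a library share its depth, its scaling factor and its mix of cells. The lowest r in fluid were those of RPL26L1 (0.40), RPL7L1 (0.41), RPS4X (0.54), RPS10 (0.71) and RPL22L1 (0.72), which holds 3 of the 4 tested paralogues. In blood they were RPS4X (0.02), RPL36 (0.40), RPL7L1 (0.53) and RPS10 (0.57).

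**Figure D3:**
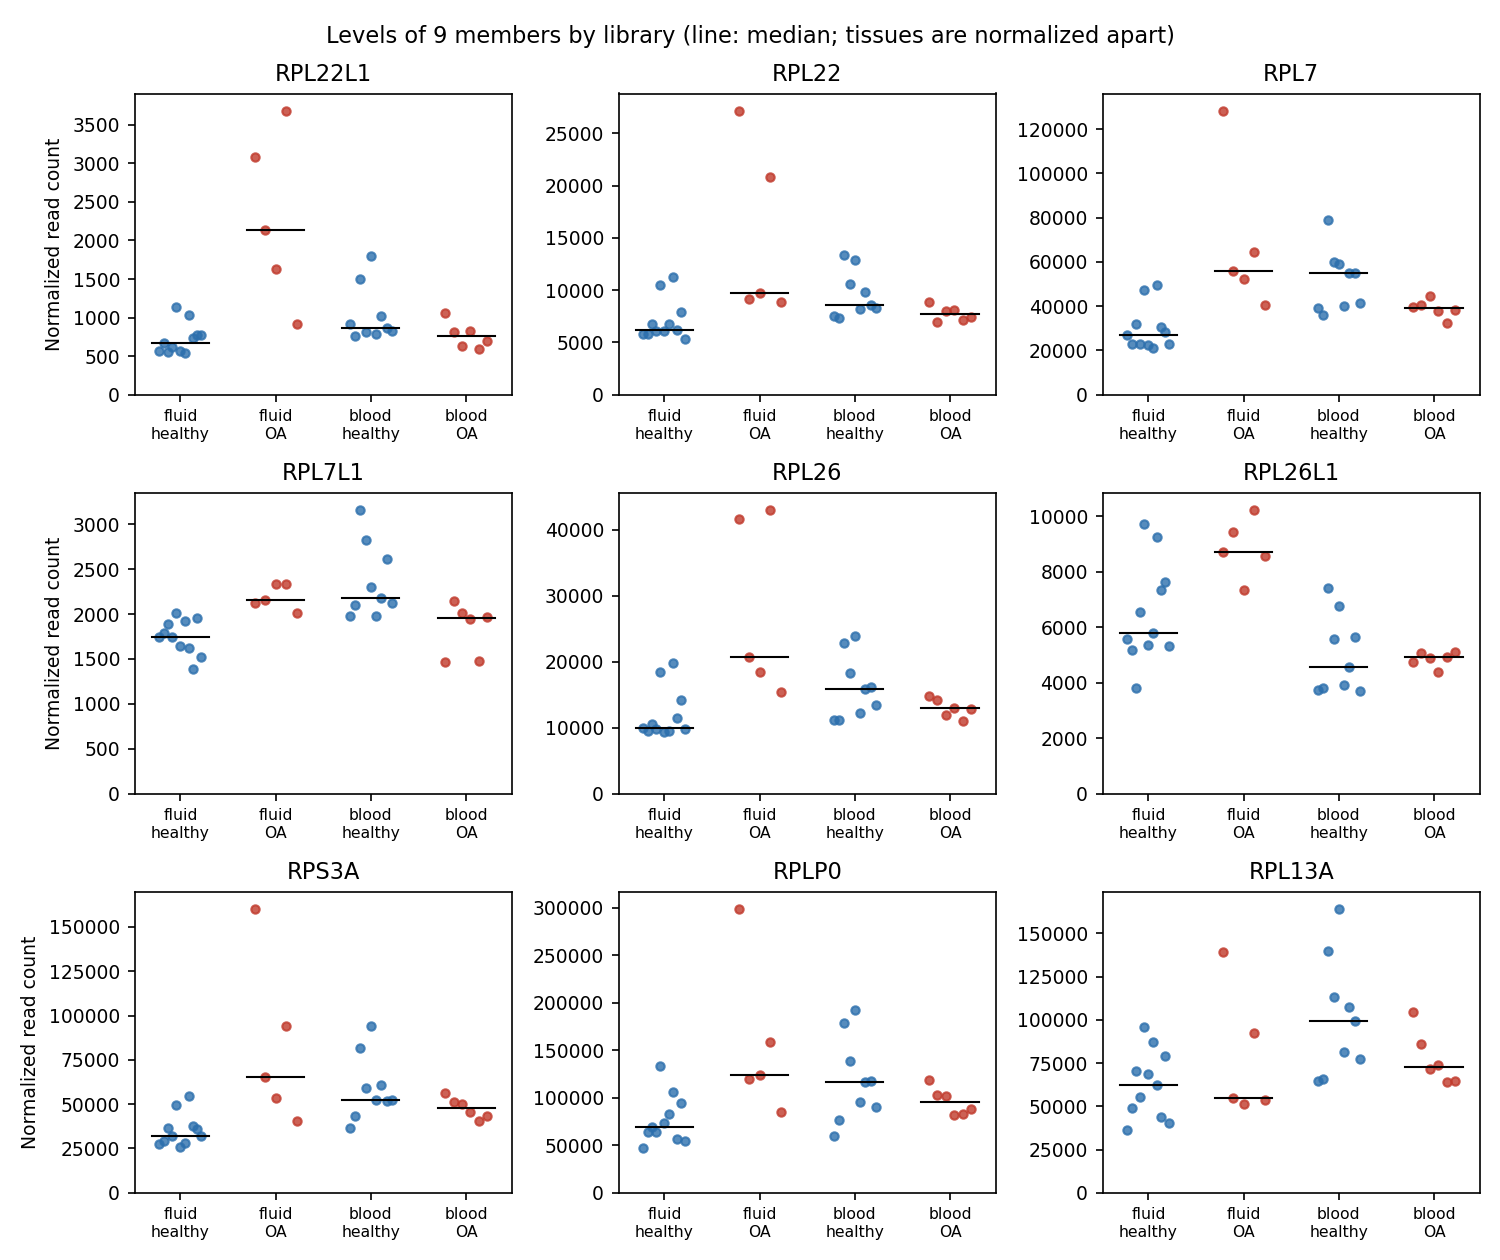
Normalized read count (linear axes from 0, not comparable between genes or between tissues) of 9 ribosomal protein genes in every library, healthy in blue and OA in red; the line is the group median. RPL22L1 has 4 of 5 OA fluids above the healthy maximum of 1135, whereas RPL13A has 3 of 5 OA fluids below the healthy median of 62370.

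Each paralogue was then set against its main form within the same library, which takes out depth and scaling. RPL22L1 gained on RPL22 in OA fluid, whereas RPL7L1 and RPL26L1 lost ground to RPL7 and RPL26. The log2 ratio of RPL22L1 to RPL22 was -2.72 ± 0.49 in OA (SD, n = 5) and -3.30 ± 0.25 in healthy fluid (SD, n = 11), a difference of 0.58 (two-sided exact permutation test over 4368 splits, p = 0.00549, adjusted over 3 pairs 0.00824). All 5 OA fluids lay above the healthy median of -3.35, and 3 above every healthy fluid. RPL22 had 27180, 9117, 9779, 20850 and 8909 in OA_1038, OA_2615, OA_3850, OA_9350 and OA_9570, against 5363 to 11250 in healthy fluid. All 5 OA fluids were above its healthy median of 6204, but only OA_1038 and OA_9350 exceeded the healthy range. Without OA_1038 and OA_9350 the difference was 0.65 (exact permutation p = 0.0137, adjusted 0.0411).

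RPL7L1, which resembles RPL7 and is known from ribosome assembly (chromosome 20, 42888935 to 42893179), had a narrow spread. It stood at 2123 in OA_1038, 2151 in OA_2615, 2331 in OA_3850, 2340 in OA_9350 and 2009 in OA_9570, against 1393, 1745 and 2008 as lowest, median and highest in healthy fluid. It was the 1 member of 69 with every OA fluid above every healthy fluid, 2009 in OA_9570 standing next to 2008 in the highest healthy library; 1.57% of all genes had such a separation. RPL7L1 rose by 0.33 (SE 0.12, limma adjusted p = 0.0476), a call that 13 of 16 fits without 1 library lost and that scaling to equal totals ended (0.13, adjusted p = 0.481). Against RPL7 its log2 ratio was -4.85 ± 0.62 in OA (SD, n = 5) and -4.04 ± 0.44 in healthy fluid (SD, n = 11), a difference of -0.81 (exact permutation p = 0.00687, adjusted 0.00824). All 5 OA fluids were below the healthy median of -3.93.

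RPL26L1, nearly the same protein as RPL26 (chromosome 14, 7693909 to 7741884), had 8699, 9421, 7333, 10240 and 8555 in OA_1038, OA_2615, OA_3850, OA_9350 and OA_9570 and 3801 to 9730 in healthy fluid. Only OA_9350 exceeded the healthy range, and the change of 0.49 (SE 0.19, limma adjusted p = 0.0686) was not called. Its log2 ratio to RPL26 was -1.53 ± 0.61 in OA (SD, n = 5) and -0.88 ± 0.24 in healthy fluid (SD, n = 11), a difference of -0.64 (exact permutation p = 0.00824, adjusted 0.00824), with 4 of 5 OA fluids below the healthy median. Without OA_1038 and OA_9350, the differences of RPL7L1 to RPL7 (-0.47, exact permutation adjusted p = 0.153) and RPL26L1 to RPL26 (-0.22, adjusted p = 0.173) did not pass, in a design of 364 splits whose smallest p is 0.00275. RPL36AL, a retained copy of RPL36A (chromosome 1, 186012127 to 186012448), rose by 0.71 (SE 0.25, limma adjusted p = 0.0413) but lost the call in 10 of 16 fits without 1 library; RPL36A was not analysed here. Reads of such near-identical genes can be split or lost in counting, so levels of RPL26L1, RPL36AL and their partners are uncertain.

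In blood, 1 pair differed. The log2 ratio of RPL26L1 to RPL26 was -1.41 ± 0.18 in OA (SD, n = 6) and -1.68 ± 0.13 in healthy blood (SD, n = 9), a difference of 0.27 (two-sided exact permutation over 5005 splits, p = 0.00579, adjusted over 3 pairs 0.0174). All 6 OA libraries were above the healthy median of -1.64, and 4 above every healthy library, so the ratio leaned the other way from fluid. RPL22L1 to RPL22 differed by -0.10 (exact permutation p = 0.429, adjusted 0.643) and RPL7L1 to RPL7 by 0.01 (p = 0.955, adjusted 0.955). Whether a ratio's difference in fluid differs from that in blood was not tested.

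**Figure D4:**
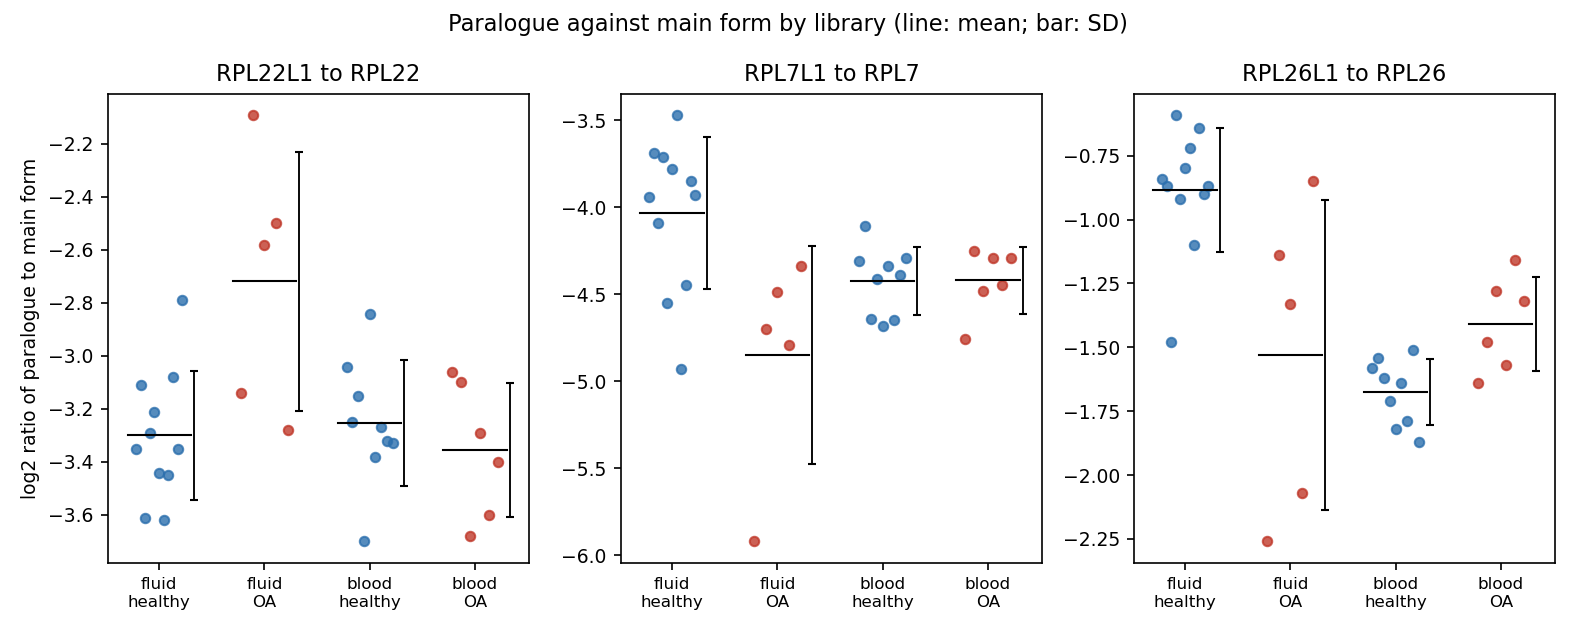
Log2 ratio of each paralogue to its main form in every library, healthy in blue and OA in red, with the group mean (line) and SD (bar). In fluid all 5 OA points of RPL22L1 to RPL22 lie above the healthy median of -3.35 and all 5 of RPL7L1 to RPL7 below that of -3.93; in blood the OA points of RPL26L1 to RPL26 lie above the healthy median of -1.64.

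The next question was whether these genes differ in circulating mononuclear cells. Limma called 0 of 69 ribosomal protein genes in either direction. At an unadjusted p below 0.05 were 15 of the 69, as were 3273 of all 13072 genes, so the members had no larger share. By edgeR 0 were called, and DESeq2 called 7 lower. Over 13072 genes, limma called 3.2% higher and 2.2% lower, edgeR 3.86% higher and 2.3% lower, and DESeq2 5.74% lower. Values nevertheless lay mostly on 1 side, with a change below 0 for 68 of 69 members and for 48.0% of all genes. The median log2 change was -0.36 in the large subunit and -0.34 in the small subunit, against 0.02 over all genes. No member had all OA libraries below all healthy ones, as 0.436% of all genes had. Because the members vary together from horse to horse, the 68 values are not 68 separate observations.

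The smallest p belonged to RPS26, a protein at the mRNA exit (chromosome 6, 74642456 to 74644310). Its values in OA blood ranged from 17540 over a median of 20450 to 25810, and in healthy blood from 19300 over 29320 to 42520. The groups overlapped, with OA_9350 and OA_9570 below every healthy library. The log2 change was -0.47 (SE 0.16, limma adjusted p = 0.0845). RPL7L1 had a change of -0.36 (SE 0.12, adjusted p = 0.0884), RPS27 -0.50 (SE 0.17, adjusted p = 0.0951) and RPL3, which sits at the catalytic centre, -0.49 (SE 0.18, adjusted p = 0.109). The change was -0.49 for RPS6 (adjusted p = 0.126), -0.40 for RPL4 (adjusted p = 0.112) and -0.38 for RPS24 (adjusted p = 0.166). The genes that DESeq2 called lower included RPS26 (-0.50, adjusted p = 0.0255), RPS27, RPS6, RPL3, RPL4 and RPL7L1.

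The highest changes in blood among large subunit genes were those of RPL36 (0.31, SE 0.32, limma adjusted p = 0.548) and RPL26L1 (-0.00, SE 0.15, adjusted p = 1.0), and among small subunit genes those of RPS10 (-0.17) and RPS15A (-0.19). The stalk genes RPLP0 and RPLP2 had changes of -0.22 (adjusted p = 0.55) and -0.37 (adjusted p = 0.272). RPL22L1 ranged from 590.7 to 1060 in OA blood, highest in OA_1038, and from 767.8 over 864.4 to 1796 in healthy blood, a change of -0.38 (SE 0.19, adjusted p = 0.226). The p53-linked RPL5 and RPL11 had changes of -0.16 (adjusted p = 0.504) and -0.23 (adjusted p = 0.298), and RPSA, RPS3, RPS19, RPS27A and RPL13A lay between -0.34 and -0.20.

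**Figure D5:**
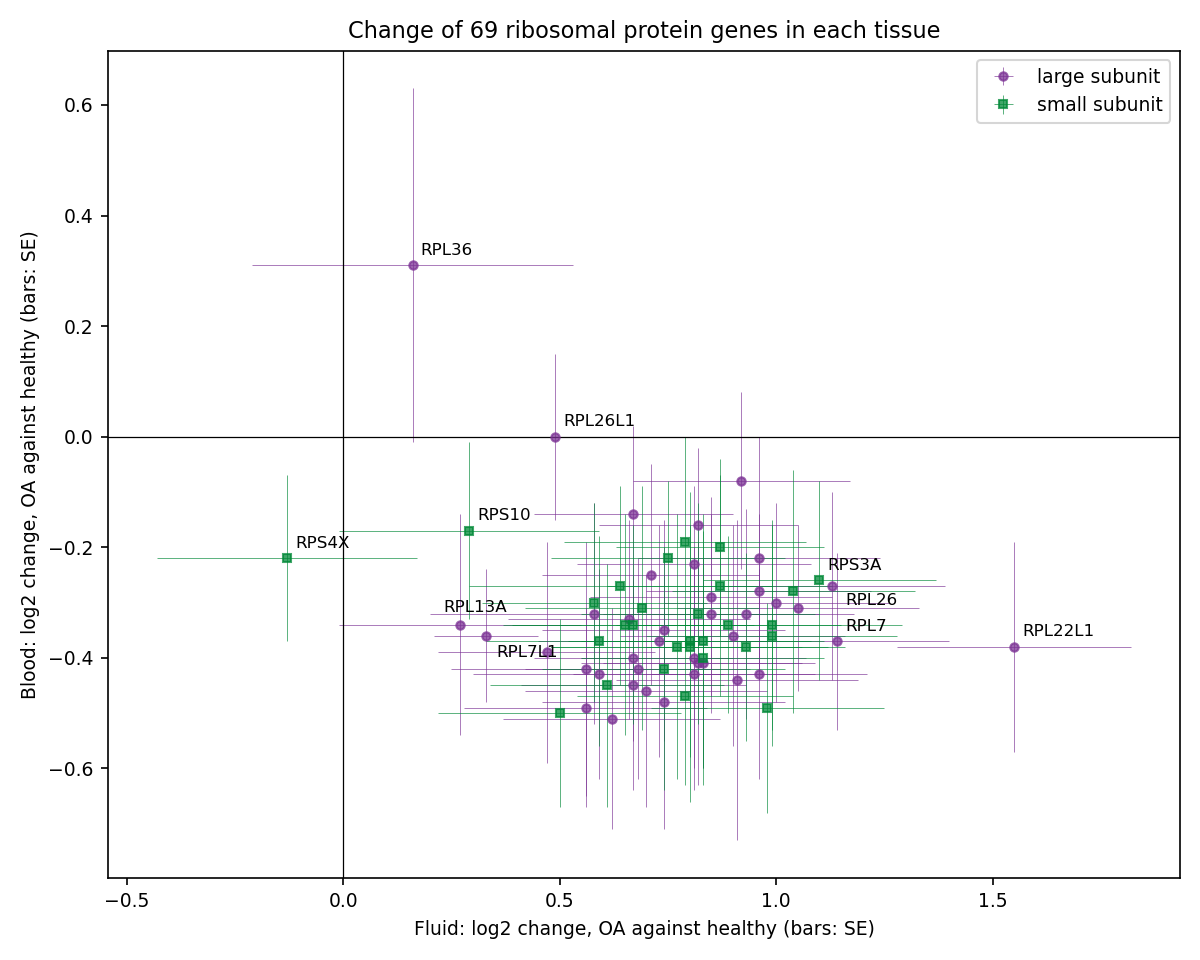
Log2 change of OA against healthy in fluid (horizontal) and in blood (vertical) for 69 ribosomal protein genes with their SE, large subunit as circles and small subunit as squares. Most genes lie to the right of 0 and below 0, at medians of 0.79 and -0.35, with RPL22L1 farthest right at 1.55 and RPL36 and RPS4X apart.

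The difference between the OA effects, fluid minus blood, was tested in 1 fit over all 4 groups. It was higher for 55 of 69 members, 33 of the large and 22 of the small subunit, and lower for 0, where 10.3% of 12733 genes were called higher and 11.9% lower. It lay above 0 for 68 of 69 members and 47.8% of all genes. The median difference was 1.14 log2 units, against -0.05 for all genes. Differences were 1.93 (SE 0.36, limma adjusted p = 0.000894) for RPL22L1, 1.51 (SE 0.31, adjusted p = 0.00155) for RPL7, 1.39 (SE 0.32, adjusted p = 0.00365) for RPL26 and 1.31 (SE 0.30, adjusted p = 0.0037) for RPS24. RPL7L1, with 0.70 (SE 0.19, adjusted p = 0.0114), was called as well, whereas RPL26L1 (0.49, adjusted p = 0.192), RPL36AL (0.95, adjusted p = 0.0522) and RPL13A (0.62, adjusted p = 0.225) were not. RPL36 (-0.16) was the 1 member below 0.

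This result, too, leaned on OA_1038 and OA_9350. Leaving out the fluid of OA_1038 gave 21 calls and that of OA_9350 gave 24. Of all 12733 genes, 863 and 995 were called higher in these fits, against 1315 with every library. Without both, 2 remained, RPL22L1 (1.45, SE 0.38, limma adjusted p = 0.0159) and RPL7 (1.16, SE 0.33, adjusted p = 0.023). There 3.41% of all genes were called higher, and the members had a median of 0.64. In every fit without 1 library, 20 members were called, a count that was not made for all genes. Scaling to equal totals gave 43 calls and a median of 0.92, where 798 of 12733 genes were called higher. The median of all genes was then -0.26 in place of -0.05, and the share of calls that were higher 26.1% in place of 46.4%. The replicate block, which compares within-horse differences in the 13 paired horses, called 66 members (median 1.25), where 11.1% of all genes were higher. OA_1038 had the largest ribosomal protein share of all OA libraries in its fluid (13.26%) and also in its blood (7.89%), whereas OA_9350 was second in fluid (9.23%) and lowest in blood (5.43%).

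Other genes of the ribosome and its making were read from the same fits. In fluid, RACK1, a scaffold on the small subunit, rose by 0.72 (SE 0.24, limma adjusted p = 0.0343). FAU, which encodes a small subunit protein fused to a ubiquitin-like part, had a change of 0.54 and was not called. Of 16 tested translation genes whose mRNAs carry the same pyrimidine tract, 10 rose and 0 fell, with a median of 0.66, where 14.4% of all genes rose. Their summed level was 1273000 in OA_1038, which stood apart, and ran from 443800 to 582500 over the remaining 4 libraries of OA fluid. Healthy libraries held 313600 to 556300. The count fell to 4 without OA_1038, to 6 without OA_9350 and to 0 without both (median 0.36). Of all 13885 genes, 1435, 1474 and 664 were called higher in these fits. Among the 10 were NPM1, a nucleolar chaperone (0.81, adjusted p = 0.0097), the histone chaperone NAP1L1 (0.75, adjusted p = 0.0131) and TPT1, a growth-related protein (0.88, adjusted p = 0.0131).

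Of 46 genes for ribosome assembly, 7 rose in fluid and 2 fell, with a median of 0.26. Of all genes 14.4% rose and 13.6% fell, so the rising share lies near the background, and it was 4 of 46 without OA_9350 and 1 of 46 without OA_1038 as well. Of all 13885 genes, 1474 and 664 were called higher in those fits. The called genes included NOP10 of the pseudouridylation complex (0.82), PES1 of large subunit processing (0.63) and the rRNA transcription factor TCOF1, which fell by 0.86. Of 6 escorts that carry single ribosomal proteins, 2 rose: GRWD1, the escort of RPL3 (0.84, limma adjusted p = 0.0449), and BCCIP, linked to RPL23 (0.62, adjusted p = 0.0165). Of 14 regulators, 1 rose and 2 fell, where 14.4% of all genes rose and 13.6% fell, so neither count stands out from the background. EIF4EBP1, the mTOR-controlled inhibitor of initiation, rose by 1.36 (limma adjusted p = 0.0109). The S6 kinase RPS6KB1 fell by 0.78 (adjusted p = 0.0144) and the mTOR inhibitor TSC2 by 0.48 (adjusted p = 0.0471). LARP1, which holds ribosomal protein mRNAs back, had a change of 0.30 (adjusted p = 0.131). That of MYC, a driver of ribosome production, was -0.58 (adjusted p = 0.246). For escorts and regulators, counts without OA_1038 or OA_9350 were not made.

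In blood, limma called 0 of the 16 translation genes (median -0.22, 4 at an unadjusted p below 0.05), edgeR 0 and DESeq2 1 lower. Of 46 assembly genes 3 fell and 0 rose, at a median of -0.25, where 2.2% of all genes fell: DKC1 (-0.42, limma adjusted p = 0.0257) and GAR1 (-0.47, adjusted p = 0.0353), both of the pseudouridylation complex, and NOP58 of the methylation complex (-0.40, adjusted p = 0.0284). With 1 library left out, limma called 0 assembly genes without OA_3850, OA_9350, OA_9570 or ORC_207, 1 without ORC_200 or ORC_208 and 5 without ORC_205. Without OA_3850, OA_9350, OA_9570 or ORC_207, 17, 18, 17 and 78 of all 13072 genes were called lower, against 288 with every library. DESeq2 called 8 assembly genes lower on all libraries. By limma none of the escorts or regulators was called, with 2 of 6 and 3 of 14 at an unadjusted p below 0.05. Of all 13072 genes, 3273 had such a p, which is the background for these counts and for the 4 translation genes. In the difference between tissues, 11 of 16 translation genes and 15 of 46 assembly genes were higher in fluid than in blood relative to healthy horses, against 10.3% of 12733 genes. Without the fluid of OA_1038 and OA_9350 these were 2 and 4, against 3.41%. They were 5 and 10 without the fluid of OA_1038 alone, where 863 of 12733 genes were called higher. Without that of OA_9350 alone they were 9 and 9, where 995 were.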

How the data were processed

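RNA sequencing of synovial fluid cells (5 OA, 11 healthy horses) and PBMC (6 OA, 9 healthy) was analysed from 2 deposited tables. Values in the deposited tables are a signal, made by the authors by dividing each library's read counts by its median-ratio size factor, with fluid and blood normalized apart. Partek, cutadapt, STAR 2.7.3, HTSeq, DESeq and the build EquCab3.0 are named in the submitters' processing notes. Their settings were not given in the sources used here. Low values are whole multiples of 1 read, so whole reads were recovered (99.85% to 99.98% of a library's values within 0.1 of a read), which gave the depth. The number of unused columns was 0. Between libraries of a group the chi-square per gene was at least 37.6, so none were near copies. At this depth the number of horses limits precision.

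Genes whose mean in a tissue was 10 or more were fitted on the log2(value + 1) scale in limma 3.58.1 (R 4.3.3; trend and robust variance), two-sided, with Benjamini-Hochberg adjustment over all genes at 0.05; adjusted p-values are limma's unless another tool is named. Fold changes on this scale understate those of low genes. The difference between tissues used 4 group means with limma weights per tissue. edgeR 4.0.16 and DESeq2 1.42.0 on the recovered reads were alternatives. Paralogue ratios were tested by exact permutation. Levels are not compared between genes, since no lengths were used, or between tissues. Other alternatives were pseudocounts of 0.5 and 5, filters, scalings, array weights, marker and depth covariates, leaving out libraries, and the replicate block. Horse numbers in the titles pair the tissues: in 13 of 13 horses the deviations correlated at over 0.1 (0.123 to 0.391, median 0.252).

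Named genes were the paralogues and their main forms, per tissue and subunit the 4 smallest p, 2 largest rises and 2 largest falls, the stalk proteins, 8 members with a role outside the ribosome, the 4 smallest p of the difference, and 3 per other list; RPL9, RPL27, RPL35, RPS29, RPS23, RPL3L, MDM2, LARP1 and MYC were added after values were seen. Of the genes the rule names, 2 are not reported here singly, while fits and counts kept them. The members and lists were chosen with earlier results of these data known. On simulated data the fluid fit recovered 31% of 2-fold and 70% of 4-fold changes among 13809 genes (3 false calls), the blood fit 70% and 89% among 13052 (12), the difference 18% and 63% among 12733 (1), and the within-horse fit 8% and 62% among 12733 (0).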

Additional observations from a re-analysis of the deposited data

Results flagged for a closer look

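In 7 of 100 sets of values examined, 1 library lay far from the rest of its group. Chance gives this for about 1 in 20 separate sets. The members vary together and all 7 flags fell on OA_1038 or ORC_202, so the count cannot be weighed against that rate. In OA fluid, OA_1038 stood apart for RPL3 (216200 normalized reads), RPL7 (128400), RPSA (106200) and the log2 ratio of RPL7L1 to RPL7 (-5.92). In blood, OA_1038 stood apart among OA horses for RPS15A (20560), and ORC_202 among healthy horses for RPS15A (33470) and RPS27A (29980).

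By limma's test, the OA effect in fluid minus that in blood was called above 0 for 10 of the named paralogues, main forms and genes of smallest p. They were RPL22L1 (1.93), RPL7 (1.51), RPL26 (1.39), RPL39 (1.37), RPS24 (1.31), RPL10 (1.30), RPL22 (1.24), RPL3 (1.05), RPS27 (0.99) and RPL7L1 (0.70). So were 55 of 69 members and 10.3% of all genes. The difference is signed: RPL3 (0.56 in fluid, -0.49 in blood) and RPS27 (0.50 and -0.50) were called in neither tissue. RPS24 was named for its small p in these same fits. Without the fluid of OA_1038 and OA_9350, RPL22L1 and RPL7 alone stayed called.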

How the results depend on the processing

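In fluid, calls of large and small subunit genes (24 and 16) were 15 and 9 with equal totals, 0 and 0 adjusted for the T cell mean (median change 1.29), 1 and 0 with the fibroblast list mean, and 1 and 0 without OA_1038 and OA_9350 (median 0.30), a choice made after seeing the data; DESeq2 called 25 small subunit genes. Without 1 library each, they ranged from 10 to 32 and from 4 to 22 (median change 0.58 to 0.94). Of all 13885 genes, 2006 were called higher in the main fluid fit and 1311 with equal totals. The T cell fit called 0 of all genes higher, the fibroblast fit 483, the fit without both horses 664 and DESeq2 2509. Without 1 library each, 1209 to 2569 of all genes were called higher. In blood, DESeq2 called 4 and 3 lower, where it called 750 of all 13072 genes lower. Without 1 library each, 0 to 0 and 0 to 1 were called lower (median -0.42 to -0.27), where 17 to 519 of all genes were. For the difference, without the fluid of OA_1038 and OA_9350 2 and 0 were called (median 0.64), and without 1 library each 14 to 35 and 7 to 26 (0.90 to 1.28). Of all 12733 genes, 434 were called higher without both fluids and 863 to 1618 without 1 library. The replicate block called 66 members on within-horse differences (median 1.25, with 11.1% of all genes higher). With duplicateCorrelation it called 63 members and 1751 of 12733 genes higher, against 55 and 1315 in the main fit. The cause of these shifts was not tested.

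Signs of single genes turned. In fluid these were RPL13A (-0.05 with array weights, -0.17 without OA_1038 and OA_9350), RPL36 (-0.06 with array weights, -0.04 with equal totals, -0.11 with the fibroblast mean, -0.46 without both horses, -0.08 to 0.49 without 1 library), RPS10 (-0.12 with array weights, -0.17 without both), RPL35, RPS27 and RPS29 (-0.17, -0.10 and -0.11 without both, from 0.58, 0.50 and 0.64) and RPS4X (1.05 with the T cell mean, 0.15 with the fibroblast mean, -0.38 to 0.12 without 1 library). In blood they were RPL26L1 (0.16 with array weights, 0.02 with equal totals, -0.05 to 0.08 without 1 library), and RPS15A and RPS27A (0.01 and 0.02 with the library total as a covariate). Without 1 library each, the ratio differences in fluid were 0.42 to 0.72 (RPL22L1 to RPL22), -0.94 to -0.54 (RPL7L1 to RPL7) and -0.81 to -0.46 (RPL26L1 to RPL26), and in blood -0.16 to -0.04, -0.03 to 0.07 and 0.22 to 0.31. Without OA_1038 and OA_9350, RPL7L1 to RPL7 (-0.47) and RPL26L1 to RPL26 (-0.22) were no longer past the threshold.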
